A study of Homo sapiens with 6 samples.

Results

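The mitochondrial ribosomal protein genes were compared between MOLM14 cells given siRNA against ATF4 and MOLM14 cells given control siRNA. Members were the protein-coding genes whose symbol starts with MRPL or MRPS and a digit, 73 of 14884 named genes on the array: 48 MRPL genes, named for the large subunit, and 25 MRPS genes, named for the small subunit. MOLM14 is an established human acute myeloid leukaemia cell line of the monocytic kind. The siATF4 group (3 arrays) had received an siRNA reagent against ATF4, and the siCTRL group (3 arrays) a non-targeting control pool, each at 70 nM and introduced by electroporation with no other agent or genetic change named. The cells of both groups grew in the same medium with serum, and neither the time after transfection nor an untransfected group is given in the sources used here. The samples are called technical replicates and numbered 1 to 3 in each group, so the spread behind each p-value is that between these samples alone and may be technical. The number of arrays limits the precision.

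Mitochondria carry their own ribosome, which makes the few proteins of the respiratory chain and ATP synthase that mitochondrial DNA encodes. Its RNA is transcribed in the mitochondrion, but all of its proteins are encoded in the nucleus, made in the cytosol and imported. Some of them descend from the proteins of the bacterial ribosome, and others were added during the evolution of mitochondria and have no counterpart there. ATF4 is a transcription factor of the integrated stress response that switches on genes for amino acid supply, and faults of mitochondrial translation are among the stresses that activate it.

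ATF4 itself had log2 levels of 7.72, 7.88 and 8.14 with siATF4, against 8.67, 8.64 and 8.85 with siCTRL, so the groups did not overlap. The log2 difference, siATF4 minus siCTRL throughout, was -0.80 (SE 0.14), or 57.4% of the control level, with an unadjusted limma p of 0.00082 and an adjusted p of 0.9999. Over all genes limma called 0 at an adjusted p below 0.05 (0.0% of 14884), and 218 genes (1.46%) had an unadjusted p below 0.05. Of 13 genes listed as markers of monocytic leukaemia 8 were measured, and 5 of them lay above the upper quartile of all features on every array. Of the B and T cell markers, PAX5, CD2 and CD8A were measured, and none of them lay there on every array. PAX5 read 3.76, 6.05 and 5.28 with siATF4, against 6.12, 5.70 and 5.43 with siCTRL. The upper quartile lay between 5.34 and 5.46, so PAX5 was above it on some arrays.

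Levels of the mitoribosomal genes were close in both groups, and no member passed the test. The limma fit called 0 of 73 members at an adjusted p below 0.05, the lowest adjusted p of a member being 0.9999, and called 0 of 73 with the replicate number as a block. At an unadjusted p below 0.05 there was 1 member higher with siATF4, MRPS23, and 0 lower, where 0.934% of all genes were higher and 0.531% lower at that level. With the block it was again MRPS23 alone, where 3.12% of all genes had such a p. Log2 differences ran from -0.31 to 0.34, and 68 of 73 members (93.2%) lay within 0.25 of 0, as did 88.1% of all genes. No member differed by more than 0.5 in size, where 2.28% of all genes did. The members were bright beside all features of these arrays, of which 37519 of 53617 carry no gene symbol. On every array 68 of 73 lay above the upper quartile of all features, and MRPL23 lay below it on all of them. The share of all named genes above it was not counted. The array values do not tell fewer transcripts per cell from fewer cells that hold them.

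For most members the intervals bound the size of the difference between these samples, which are called technical replicates. The median half-width of a member's 95% interval, taken from limma's moderated standard error and not adjusted for the number of genes, was 0.31 on the log2 scale. For 53 of 73 members this interval excluded both a fall and a rise of 0.5, as it did for 8812 of 14884 genes. For 72 members it excluded both a fall and a rise of 1, as it did for 13691 of all genes. The exception to the wider bound among members was MRPL33, with an interval from -0.78 to 1.39. MRPL39, MRPL51 and MRPS28 were the other members whose interval reached past 0.5 on both sides.

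**Figure D1:**
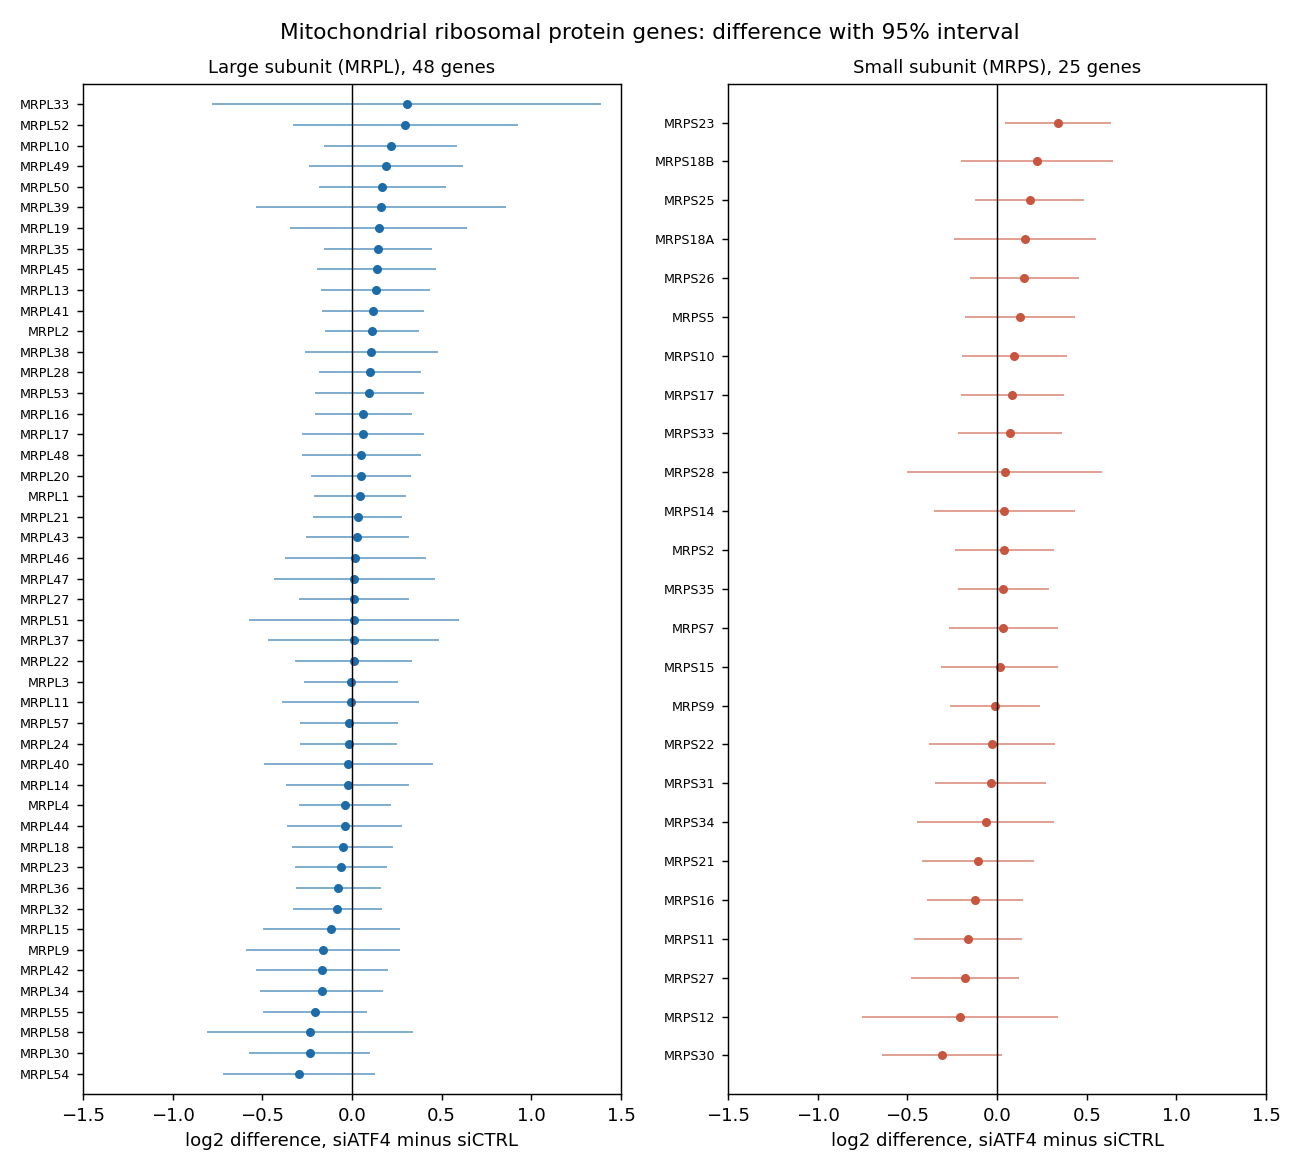
Log2 difference of each mitoribosomal gene, siATF4 minus siCTRL (points), with its 95% interval from limma (lines), for the 48 MRPL genes on the left and the 25 MRPS genes on the right. All points lie between -0.31 and 0.34, and MRPS23 is the 1 gene whose interval does not cross 0.

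Of the 73 members 43 had a positive and 30 a negative difference, a share of 58.9% higher where 53.8% of all genes were higher. Quantile normalization turned the split to 36 higher and 37 lower (49.3% higher), where 54.1% of all genes were higher. With equal array medians it was 46 higher and 27 lower (63.0% higher), where 58.0% of all genes were higher. Among MRPL genes 28 of 48 were higher, with a median difference of 0.01, but 21 of 48 with quantile normalization, with a median of -0.01. Among MRPS genes 15 of 25 were higher both as deposited and with quantile normalization, and the median difference was 0.04, or 0.02 with quantile normalization. The median over all genes was 0.01.

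The mean level of the MRPL genes was 6.98, 6.90 and 7.003 in siATF4 replicates 1, 2 and 3, against 6.96, 6.87 and 6.995 in the siCTRL replicates. The MRPS mean was 7.56, 7.55 and 7.64 with siATF4, against 7.60, 7.52 and 7.58 with siCTRL. In both subunits the arrays of the groups overlapped. The MRPL mean differed by 0.02, between 6.96 ± 0.05 and 6.94 ± 0.07 (SD, n = 3 each), and by -0.01 with quantile normalization. The MRPS mean also differed by 0.02, between 7.59 ± 0.05 and 7.57 ± 0.04 (SD, n = 3 each), and by -0.003 with quantile normalization. Both differences were smaller than the spread between arrays of 1 group.

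**Figure D2:**
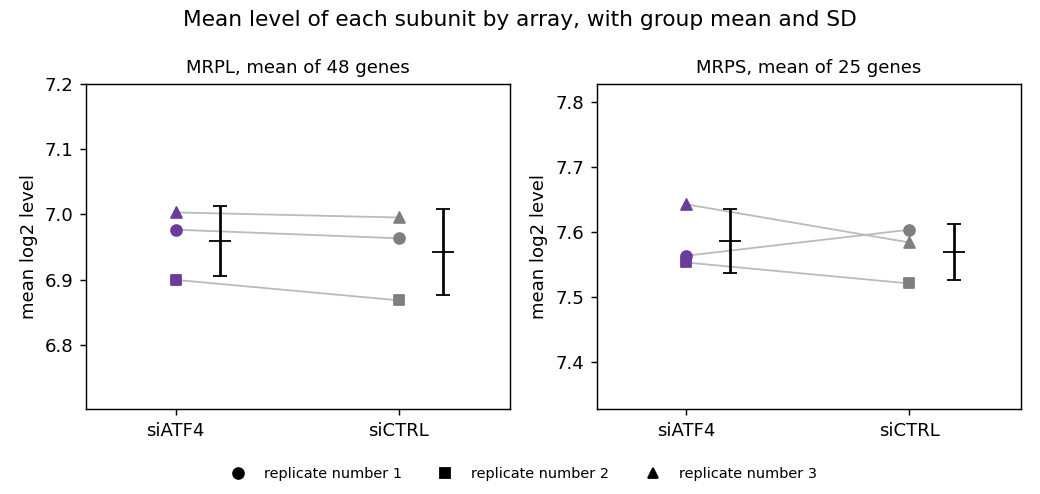
Mean log2 level of the MRPL genes (left panel) and the MRPS genes (right panel) on each array, siATF4 beside siCTRL, with grey lines joining arrays of the same replicate number and black bars for the group mean and SD. The groups overlap in both panels, with MRPL differences of 0.01, 0.03 and 0.01 and MRPS differences of -0.04, 0.03 and 0.06 in numbers 1, 2 and 3.

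The symbol does not always give the subunit. MRPS30 and MRPS18A are named for the small subunit but sit in the large one. With both placed by position, the mean difference was 0.01 for 50 large-subunit and 0.02 for 23 small-subunit genes. Sorted by descent, the 42 members with a bacterial counterpart had 23 higher and 19 lower and a median difference of 0.01. The 29 members without one had 18 higher and 11 lower and a median of 0.03. With quantile normalization the 42 had 19 higher and 23 lower and a median of -0.01, and the 29 had 15 higher and 14 lower and a median of 0.003. MRPS18A and MRPS18B, extra paralogues of a bacterial family, were left out of this sorting. The widest spread among members was in this second set, with an SD of the differences of 0.16 against 0.12.

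MRPS23, a protein of the small subunit with no bacterial counterpart, read 7.62, 7.36 and 7.59 with siATF4, against 7.24, 7.04 and 7.27 with siCTRL (log2 levels). Every siATF4 array lay above every siCTRL array. The log2 difference was 0.34 (SE 0.12, 95% interval 0.04 to 0.64), with an unadjusted limma p of 0.0300 and an adjusted p of 0.9999. In numbers 1, 2 and 3 it was 0.38, 0.32 and 0.32. Leaving out each array in turn gave 0.27 to 0.42.

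MRPS30 was the member that lay lowest relative to its controls. It read 7.96, 8.35 and 8.30 with siATF4, against 8.52, 8.61 and 8.40 with siCTRL. All siATF4 arrays were below all siCTRL arrays, with 8.35 and 8.40 as the closest pair. The log2 difference was -0.31 (SE 0.14, 95% interval -0.64 to 0.03), with an unadjusted limma p of 0.0660, and it was -0.56, -0.26 and -0.10 by replicate number. Without siATF4 replicate 1 it was -0.18. These were the 2 members without overlap between groups, 1 higher and 1 lower. Among all genes 3.3% were separated with siATF4 higher and 2.59% with siATF4 lower. With quantile normalization MRPL54 and MRPL55 were separated too, both lower with siATF4. The exact two-sided permutation p was 0.1 for MRPS23 and for MRPS30, and also for ATF4. This is the smallest that 3 arrays against 3 can give. Any gene with separated groups has it, so it adds nothing to the separation.

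**Figure D3:**
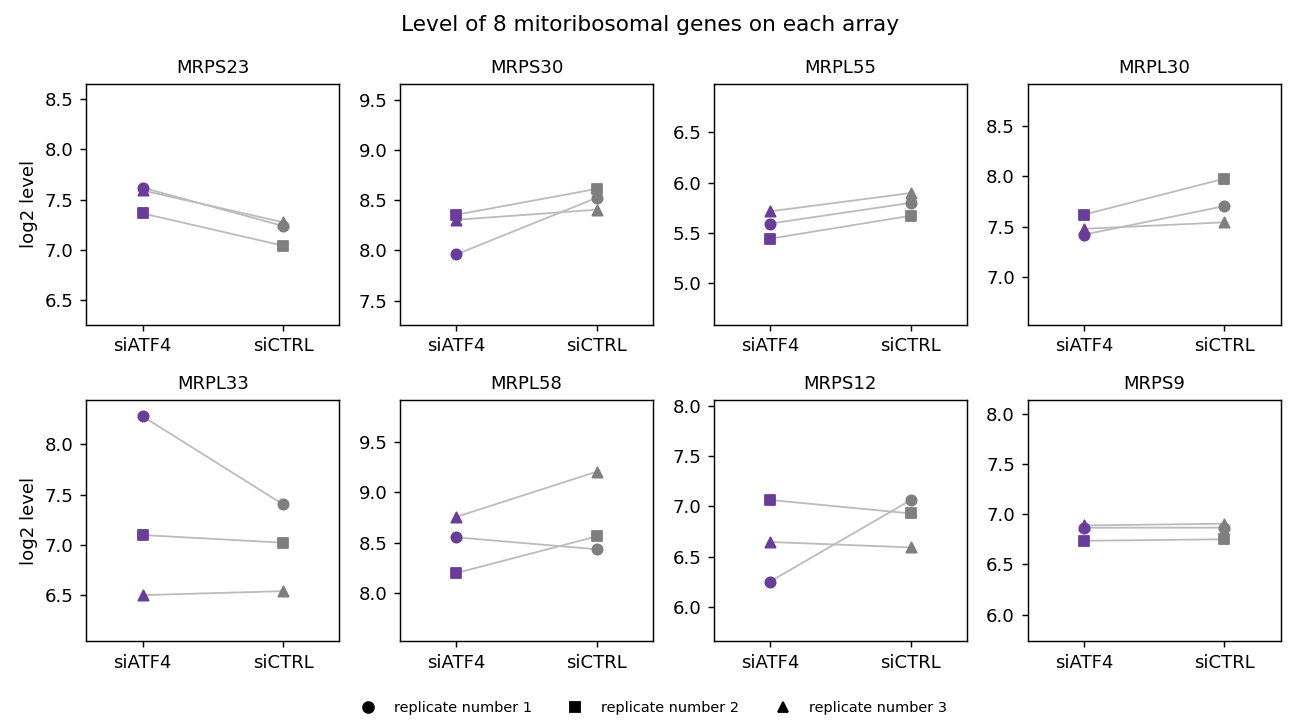
Log2 level of 8 mitoribosomal genes on each array, siATF4 left and siCTRL right in each panel, with symbols for the replicate number and grey lines joining arrays of the same number. MRPS23 is separated upward and MRPS30 downward in siATF4, MRPL55 has parallel lines, MRPL33 spreads over 1.78 and MRPS9 over 0.17.

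MRPL55, a large-subunit protein of bacterial descent, read 5.59, 5.44 and 5.71 with siATF4, against 5.80, 5.67 and 5.90 with siCTRL. The groups overlapped, but the difference within replicate numbers was close to constant at -0.21, -0.23 and -0.18. The log2 difference was -0.21 (SE 0.12), with an unadjusted limma p of 0.135, or 0.0974 with the replicate number as a block. MRPL30, also of bacterial descent, read 7.42, 7.62 and 7.48 with siATF4, against 7.70, 7.98 and 7.54 with siCTRL, a log2 difference of -0.24 (SE 0.14). It was below its control in each number, and the groups overlapped. Without siATF4 replicate 2 MRPL55 was at -0.14, and without siCTRL replicate 2 MRPL30 was at -0.12.

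MRPL54, a large-subunit protein with no bacterial counterpart, had the lowest difference among MRPL genes. It read 5.11, 5.49 and 5.49 with siATF4, against 5.62, 5.41 and 5.94 with siCTRL, a log2 difference of -0.30 (SE 0.18), and the groups overlapped. In number 2 it was 0.08, and without siCTRL replicate 3 it was -0.15. MRPL34, of bacterial descent, had a log2 difference of -0.17 (SE 0.14). Its value in number 1 was -0.51, and in numbers 2 and 3 it was -0.07 and 0.07. Without siCTRL replicate 1 it was -0.05.

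MRPL58, a peptidyl-tRNA hydrolase that frees stalled chains and is built into the large subunit, read 8.55, 8.20 and 8.76 with siATF4, against 8.43, 8.56 and 9.21 with siCTRL. The log2 difference of -0.23 (SE 0.24) came from numbers 2 and 3, since it was 0.12 in number 1. Without siCTRL replicate 3 it was 0.004. MRPS12, a protein of the decoding centre, read 6.25, 7.06 and 6.65 with siATF4, against 7.06, 6.93 and 6.59 with siCTRL. Its log2 difference of -0.21 (SE 0.23) rested on siATF4 replicate 1, and without both arrays of number 1 it was 0.09. MRPL44, which carries a ribonuclease III fold, had a log2 difference of -0.04 (SE 0.14), and without siCTRL replicate 1 it was 0.08. A second, dimmer feature of MRPL44 gave -0.20, and the mean over both features gave -0.12.

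The remaining small-subunit members at the low end differed little. MRPS27, a pentatricopeptide repeat protein, had a log2 difference of -0.18 (SE 0.13). MRPS11 and MRPS16, both of bacterial descent, had -0.16 (SE 0.13) and -0.12 (SE 0.11). All of these were below their controls in each replicate number, and their groups overlapped. MRPS16 has a second, dimmer feature on the array, which gave -0.31 where the brighter one gave -0.12. Leaving out 1 array brought MRPS27 to between -0.28 and -0.12, MRPS11 to between -0.25 and -0.07, and MRPS16 to between -0.19 and -0.07.

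At the high end the largest MRPL value was that of MRPL33, a small bacterial-type protein of the large subunit. It read 8.28, 7.10 and 6.50 with siATF4, against 7.40, 7.02 and 6.54 with siCTRL. Its log2 difference of 0.30 (SE 0.46) was 0.88 in number 1 and 0.08 and -0.04 in the others, and without siATF4 replicate 1 it was -0.19. MRPL52 read 6.03, 5.31 and 5.73 with siATF4, against 5.34, 4.995 and 5.84 with siCTRL, a log2 difference of 0.30 (SE 0.26) with overlap between groups. Without siCTRL replicate 2 it was 0.10. MRPL10, which anchors the factor-binding stalk of the large subunit, had a difference of 0.22 (SE 0.16), or 0.07 without siATF4 replicate 1, where it read 5.995, and every other array read 5.36 to 5.59. MRPL49 had 0.19 (SE 0.18), or 0.09 without siCTRL replicate 2. MRPL50 had 0.17 (SE 0.15), or 0.06 without siCTRL replicate 3.

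MRPS18A and MRPS18B are paralogues that descend from the same bacterial protein. MRPS18B had a log2 difference of 0.22 (SE 0.18), of which 0.61 came in number 1 against 0.10 and -0.04 in numbers 2 and 3. The array holds 7 features for MRPS18B, and all 7 carried identical values, so they count once. MRPS18A had 0.16 (SE 0.17) and was above its control in each number, at 0.35, 0.10 and 0.02. MRPS25 and MRPS26, both without a bacterial counterpart, had 0.18 (SE 0.13) and 0.15 (SE 0.13), and their groups overlapped. The lowest values with 1 array left out were 0.08 for MRPS18B and 0.09 for MRPS25 (both without siATF4 replicate 1), 0.06 for MRPS18A (without siCTRL replicate 2) and 0.07 for MRPS26 (without siATF4 replicate 3).

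Within replicate numbers the members did not hold a common direction. In number 1, 35 members were higher and 38 lower with siATF4. In number 2 it was 39 and 34, and in number 3 it was 38 and 35. Of all 14884 genes 7623, 7996 and 8108 were higher in numbers 1, 2 and 3. The members' median differences were -0.01, 0.05 and 0.01. Their differences were widest in number 1, with an SD over members of 0.30 against 0.17 and 0.18. The same held over all genes, with an SD of 0.47 in number 1 against 0.21 and 0.24. In all 3 numbers 10 members were higher, where 14.4% of all genes were, and 10 were lower, where 9.2% of all genes were. The higher ones were MRPL2, MRPL13, MRPL38, MRPL41, MRPL45, MRPL49, MRPS5, MRPS18A, MRPS23 and MRPS26. The lower ones were MRPL15, MRPL30, MRPL36, MRPL55, MRPS9, MRPS11, MRPS16, MRPS27, MRPS30 and MRPS34.

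The replicate number went with more of the members' variation than the siRNA did. Over the 6 arrays the number held a median of 60.3% of a member's sum of squares and the siRNA 11.5%, with 2 and 1 of the 5 degrees of freedom, and over all genes the medians were 51.2% and 8.58%. For 64 of 73 members the number held the larger part, as it did for 12177 of 14884 genes. MRPL37, chosen after its values were seen, read 8.22, 8.34 and 8.82 with siATF4, against 8.23, 8.41 and 8.71 with siCTRL. Both arrays of number 3 stood above the rest, and the siRNA held 0.046% of its sum of squares against 97.3% for the number. MRPS34, chosen in the same way, read 8.46, 8.24 and 8.66 with siATF4, against 8.50, 8.32 and 8.73 with siCTRL, with 96.3% for the number. MRPS9, the steadiest member, ranged over 0.17 across the 6 arrays, and the median member over 0.44. Whether the numbers were separate transfections is not given in the sources used here.

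Promoter windows were set beside these values, since ATF4 binds a composite element with C/EBP partners and the nuclear genes for mitochondrial proteins are known for sites of ETS-family factors, NRF1 and YY1. RefSeq windows (GRCh38.p14, 250 bases before to 50 after a start) were found for 65 of the 73 members, 81 windows in all, and for 9707 of the protein-coding genes tested. MRPL2, MRPL10, MRPL13, MRPL15, MRPL21, MRPL23, MRPL35 and MRPS28 were not searched. Each motif was searched as exact letters on both strands, and none of the motifs searched contains another. The ETS core ends with the letters that open the YY1 motif, but 0 matches of the pair overlapped in the members. The stretches shown are the 150 bases before the start of MRPS23, the member with the lowest p, of MRPL55, the member with a match to the C/EBP-ATF letters, and of ASNS, an asparagine synthetase gene known to be driven by ATF4. Capitals mark the C/EBP-ATF letters TGATGNAA and the ETS core CCGGAAG, on either strand.
MRPS23, chr17:57850045-57850194, minus strand: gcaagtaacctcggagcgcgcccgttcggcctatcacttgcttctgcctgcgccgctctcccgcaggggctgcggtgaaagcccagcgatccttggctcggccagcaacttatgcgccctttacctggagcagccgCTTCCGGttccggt
MRPL55, chr1:228109300-228109449, minus strand: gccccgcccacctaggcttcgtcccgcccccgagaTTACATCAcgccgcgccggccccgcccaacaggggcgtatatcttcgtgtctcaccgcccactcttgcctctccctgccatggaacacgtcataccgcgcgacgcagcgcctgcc
ASNS, chr7:97872409-97872558, minus strand: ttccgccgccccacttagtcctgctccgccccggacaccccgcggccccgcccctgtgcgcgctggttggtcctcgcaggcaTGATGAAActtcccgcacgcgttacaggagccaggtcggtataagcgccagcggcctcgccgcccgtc

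The C/EBP-ATF letters were found in 1 of 65 members (1.54%), MRPL55, where 3.18% of the protein-coding genes with a window had them. In MRPL55 the match began 115 bases before the start, on the strand opposite to the gene. The ETS core was found in 29 of 65 members (44.6%), where 17.9% of protein-coding genes had it, at 18 of 41 MRPL and 11 of 24 MRPS genes. Counted by window the shares were 39.5% of 81 and 13.7% of 13726. Matches too were counted by window, so a site in overlapping windows of a gene, as in MRPS22, MRPL47 and MRPS12, counts more than once. Counted so, 31 of 44 ETS core matches began at 50 bases before the start or later. The YY1 letters AAGATGGCG were found in 12 of 65 members (18.5%), where 3.57% of protein-coding genes had them. The NRF1 letters GCATGCGC were found in 5 members (7.69%, against 5.27%) and the E-box letters CACGTG in 8 (12.3%, against 11.3%). These matches are descriptions of letters and not binding sites.

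**Figure D4:**
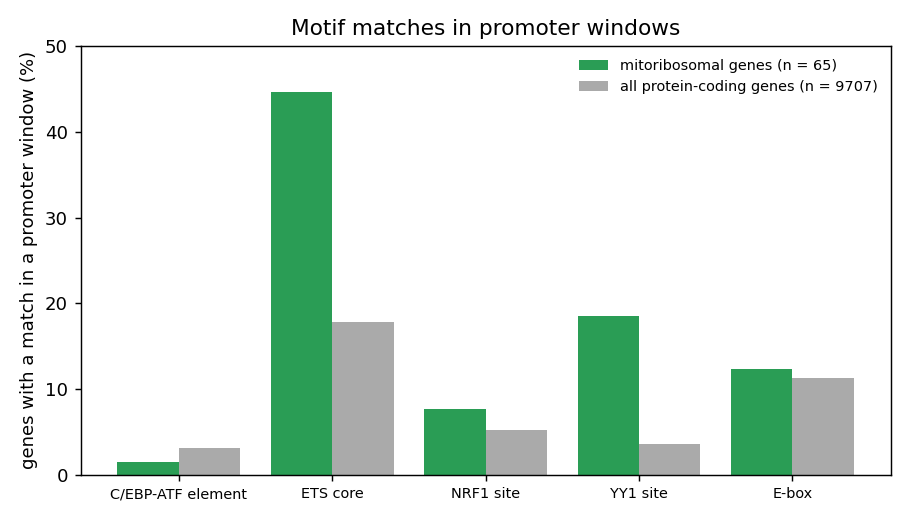
Share of genes with a match to each motif in a promoter window, for 65 mitoribosomal genes and 9707 protein-coding genes. The ETS core (44.6% against 17.9%) and the YY1 letters (18.5% against 3.57%) are at higher shares in the mitoribosomal genes, and the C/EBP-ATF element is at 1.54% against 3.18%.

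The YY1 letters lay close to the start of the transcript in most members, with 9 of 13 matches beginning after it. They contain ATG, the letters of a start codon, and whether a match lies at the start codon of its gene was not tested. The 30 bases around the match are shown for the members described above that hold it, with the letters in capitals. MRPL52 has matches at -98 and -64 bases from the start, and its stretch shows the one at -98.
MRPS30, chr5:44808950-44808979, plus strand: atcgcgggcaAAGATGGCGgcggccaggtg
MRPS18A, chr6:43687763-43687792, minus strand: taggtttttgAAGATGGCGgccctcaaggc
MRPS18B, chr6:30617853-30617882, plus strand: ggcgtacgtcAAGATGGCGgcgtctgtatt
MRPL50, chr9:101398576-101398605, minus strand: gatctcatcgAAGATGGCGgcgcgatctgt
MRPL52, chr14:22829779-22829808, plus strand: acgatgacccAAGATGGCGgagccgtgatt

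The 29 members with the ETS core letters had a median difference of 0.01, with 17 higher and 12 lower, and the 36 others had 0.01, with 20 higher and 16 lower. The 12 members with the YY1 letters had a median of 0.06, with 8 higher and 4 lower, and the 53 others had 0.01, with 29 and 24. MRPS30, at -0.31, and MRPL52, at 0.30, both hold the YY1 letters.

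Genes that work with the mitoribosome were taken from lists. Of 6 mitoribosomal proteins with other symbols 3 were measured, and 0 passed the test. CHCHD1 had a log2 difference of -0.17 (SE 0.11) and PTCD3 one of 0.17 (SE 0.15), or 0.03 without siCTRL replicate 3. Of 28 assembly and ribosomal RNA modification factors 24 were measured, with 0 called, a median of 0.07, and 19 higher and 5 lower. With quantile normalization that split was 16 and 8, and the median 0.04. Array weights gave 15 higher and 9 lower, with a median of 0.008. Dropping siATF4 replicate 3 gave 14 higher and 10 lower, with a median of 0.01. Dropping siCTRL replicate 1 gave 20 higher and 4 lower, with a median of 0.08. The lean of this list thus varied with the setting, and of all genes 53.8% were higher as deposited. MTG1, a GTPase of large-subunit assembly, had -0.27 (SE 0.18), with -0.66, -0.10 and -0.06 by replicate number and -0.10 without siATF4 replicate 1. DDX28, a helicase of the same process, had 0.24 (SE 0.12). Its groups were separated with siATF4 higher, as were those of 3.3% of all genes, and the closest pair read 5.73 and 5.72.

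Of 19 mitochondrial translation factors and helpers 15 were measured, with 0 called at the adjusted threshold and a median of 0.06. The median was 0.02 with quantile normalization and -0.02 without siATF4 replicate 1, where 5 were higher and 10 lower. SLIRP, an RNA-binding protein that stabilises mitochondrial messenger RNAs, read 6.42, 6.73 and 6.68 with siATF4, against 7.04, 6.92 and 6.83 with siCTRL. The groups were separated, with a log2 difference of -0.32 (SE 0.13) and an unadjusted limma p of 0.0418, or 0.0600 with the replicate number as a block. Of 17 genes for mitochondrial DNA upkeep and transcript processing 8 were measured, with 0 called and a median of 0.09. When 1 array was left out the median was 0.05 (without siCTRL replicate 3) to 0.18 (without siCTRL replicate 1). With array weights it was 0.02. Without both arrays of number 1, 2 or 3 it was 0.12, 0.002 and 0.03. MTERF1 had 0.29 (SE 0.21) and TRMT10C 0.13 (SE 0.12), and without siATF4 replicate 1 they were at 0.16 and 0.05. Among 7 measured regulators of mitochondrial genes 0 were called, with ATF5 at -0.67 (SE 0.25) and an unadjusted limma p of 0.0326. By replicate number ATF5 differed by -1.25, 0.08 and -0.86, and its groups overlapped.

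Of 7 serine and asparagine genes tied to ATF4, 5 were measured. All 5 were lower with siATF4, with a median of -0.62, 2 of them at an unadjusted p below 0.05 and 0 past the adjustment. With the replicate number as a block 4 of the 5 had such a p. The size of the median rested in part on siCTRL replicate 3, without which it was -0.32, and without both arrays of number 3 it was -0.43 and 1 of the 5 was higher with siATF4. SHMT2, the mitochondrial serine hydroxymethyltransferase, read 6.71, 6.86 and 6.78 with siATF4, against 7.27, 7.15 and 7.65 with siCTRL, a log2 difference of -0.57 (SE 0.15). PSAT1, an enzyme of serine synthesis, had -1.01 (SE 0.30), with -0.52, -0.80 and -1.72 by replicate number and -0.64 without siCTRL replicate 3. ASNS, whose promoter stretch is shown above, had -0.70 (SE 0.38), and its groups overlapped. It was below its control in each replicate number, and without siCTRL replicate 3 it was at -0.25. PSPH differed least of the 5, at -0.11 (SE 0.15), with 0.04, -0.02 and -0.33 by replicate number and -0.01 without siATF4 replicate 3. The lowest of the 73 mitoribosomal differences was -0.31. The 52 cytosolic ribosomal protein genes had 0 called, 23 higher and 29 lower, and a median of -0.01.

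**Figure D5:**
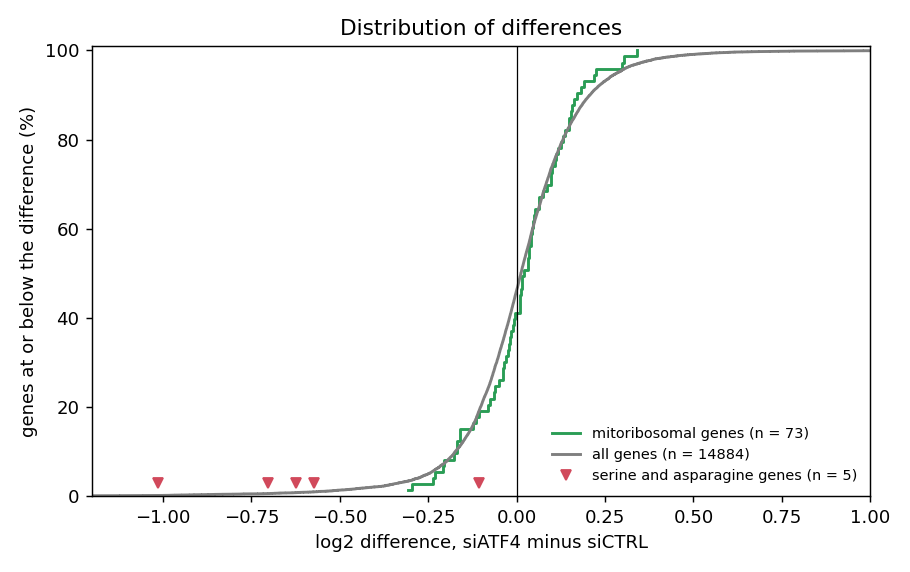
Cumulative share of genes (vertical axis, percent) at or below each log2 difference, siATF4 minus siCTRL (horizontal axis), for 73 mitoribosomal genes and all 14884 genes, with triangles for 5 serine and asparagine genes. The mitoribosomal curve stays within -0.31 and 0.34, and 4 of the 5 triangles lie below -0.5.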

How the data were processed

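Total RNA (100 ng) was converted to biotin-labelled target with an Affymetrix whole-transcript kit, as the labels' protocols state. The deposited values of 53617 features on 6 arrays were read as log2 from their range (1.91 to 14.2). The software Partek comes from the submitters' processing notes, while its version, the background correction and the normalization are not given in the sources used here. Array medians lay between 3.88 and 3.96, so the values were used as the authors deposited them. The array of siCTRL replicate 2 had the highest median (3.96) and the lowest upper quartile (5.34). Features were named from the platform annotation (16098 with 1 symbol, 0 with several, 37519 with none), and all 16098 matched the GRCh38.p14 gene table. Where a gene had several features, the brightest on average was used. Signal over background was not analysed here.

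Group was the only term in limma 3.58.1 (R 4.3.3, lmFit and eBayes), two-sided, with Benjamini-Hochberg adjustment over 14884 genes and a threshold of 0.05. SE is limma's moderated standard error, and each SD is taken within a group of arrays. The members and lists were chosen with earlier results of these data known. Named members were the 5 highest and 5 lowest differences of each subunit, those at an unadjusted p below 0.05, and MRPS30, MRPS12, MRPS18A, MRPS18B, MRPL44 and MRPL58. In each list those at an unadjusted p below 0.05 or the 2 largest in size were named, and other names were chosen after their values were seen. MRPL12, MRPS18C and MRPS36 were not analysed here.

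Deviations from the group means correlated across genes at 0.20, 0.40 and 0.62 between arrays of numbers 1, 2 and 3, each over the limit of 0.1, so fits with the number as a block were run as an alternative. This pairing rests on the data and not on the labels. siATF4 replicate 2 correlated with siCTRL replicate 1 at 0.48. The other alternatives were quantile normalization, equal array medians, array weights, a robust prior with a mean-variance trend, the dimmest 33% of genes left out, averaging the features of each gene, protein-coding genes only, members placed by subunit position, and each array left out in turn. Leaving out both arrays of a number was added after seeing the data.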

Additional observations from a re-analysis of the deposited data

How the results depend on the processing

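Under every alternative run 0 genes and 0 mitoribosomal members passed the adjusted threshold, the replicate block included, where the lowest adjusted p of a member was 0.9993. The count of 1 member at an unadjusted p below 0.05 (MRPS23) was also 1 with the replicate block, where 464 genes (3.12%) had such a p. It was 0 with array weights, with the mean-variance trend and robust prior, and without both arrays of number 2 or of number 3. With each array left out it was 0 to 1. The cause was not tested. With single arrays left out the MRPL mean difference ranged from -0.02 to 0.05, the MRPS mean difference from -0.01 to 0.03 and ATF4 from -0.91 to -0.71. Array weights gave -0.01 for MRPL and -0.0007 for MRPS. Of 357 values of the 21 named members, 8 turned sign: MRPL33 with array weights (-0.0164) and without siATF4 replicate 1 (-0.19), MRPL44 without siATF4 replicate 3 (0.0022), siCTRL replicate 1 (0.0799) or both arrays of number 1 (0.0429), MRPL58 without siCTRL replicate 3 (0.0041), and MRPL34 (0.0009) and MRPS12 (0.0941) without both arrays of number 1. With single arrays left out these members ranged from -0.1893 to 0.7012 (MRPL33), -0.1068 to 0.0799 (MRPL44) and -0.3823 to 0.0041 (MRPL58). Over all 73 members, leaving out 1 array turned the sign of 39. With 3 arrays a group, precision is limited, and MRPL33 had the largest SE (0.46) of the members named.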
